A study of Drosophila melanogaster with 26 samples.

Results

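Messenger RNAs of 5 enzymes that handle reactive oxygen and reactive metabolites were followed in larval fat body of Drosophila melanogaster: Cat (catalase), Sod (copper-zinc superoxide dismutase, now Sod1), Jafrac1 (a peroxiredoxin, now Prx2), GstD1 (a delta-class glutathione transferase) and CG1702 (a theta-class glutathione transferase, now GstT3). They were chosen by name, with earlier results of these data known, and all 5 were found among the 14659 features of the expression table. All 5 also passed the filter on low values, a mean of at least 1 over the 26 libraries, which left 2428 features for testing.

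Superoxide that leaks from respiration is turned into hydrogen peroxide by superoxide dismutase. Catalase, held mostly in peroxisomes, splits hydrogen peroxide into water and oxygen, while peroxiredoxins reduce it with electrons that come from NADPH through thioredoxin. Glutathione transferases join glutathione to electrophiles, among them products of lipid peroxidation and insecticides, and in flies GstD1 is widely used as a readout of the Nrf2-type factor cnc. The fat body does the work that liver and adipose tissue share in mammals, which makes it a main site of sugar storage as fat.

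The 26 libraries came from fat body of female larvae at the wandering stage that ends larval life, 13 reared on high sugar (0.7 M sucrose) and 13 on the control diet (0.15 M sucrose). All larvae were offspring of control crosses without an RNAi construct. Their mothers carried UAS-Dcr2, a transgene for the RNA-cutting enzyme Dicer-2, on the X chromosome together with cg-GAL4 or r4-GAL4, and their fathers came from the VDRC stocks w1118 or 60100. The cg line uses a collagen promoter that is active in fat body and in haemocytes, and the r4 line is active mainly in fat body. Every group therefore carried a driver and the transgene, and larvae with neither were not part of the comparison. By library number and labels the samples fell into 4 sets, each with both diets: set 13-21 (w1118 cg, 3 high-sugar and 3 control libraries), set 49-54 (w1118 cg, 3 and 3), set 55-63 (w1118 r4, 3 and 3) and set 67-92 (60100 r4, 4 and 4). Whether replicates were separate cultures of larvae is not stated in the labels, and p-values therefore measure only the spread between these libraries. Driver and stock each coincide with a set and cannot be told apart from it.

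Each deposited value is a multiple of its library's upper quartile, and depth per library is unknown. Log2 changes are high sugar over control after adding 1 to each value, so that changes of weakly expressed genes come out too small. In bulk tissue, fewer cells of a type and less RNA per cell cannot be told apart. Between 8 and 11 of 11 fat body markers were detected in a library, with a summed level of 5272 to 14905, and CG9192 was at 0 in all but 1 of the 8 groups. Libraries were not free of other tissues, and in some sets the amounts differed with diet, not always in the same direction. In set 49-54 the summed level of 15 midgut markers was 1.76 to 2.26 on high sugar and 5.10 to 73.3 on control (8 of the 15 at 0 in all 3 high-sugar libraries), and that of 9 haemocyte markers was 2.27 to 3.20 on high sugar and 14.3 to 19.7 on control. The 9 salivary gland markers summed to 2710 to 6047 on high sugar and 2178 to 3651 on control in set 13-21, but to 5.58 to 18.5 on high sugar and 33.8 to 604 on control in set 49-54. In sets 55-63 and 67-92 together they stayed between 15.1 and 754. In set 55-63 the midgut markers summed to 2.70 to 5.10 on high sugar and 55.1 to 146 on control. In set 67-92 they summed to 64.8 to 165 on high sugar and 10.9 to 137 on control, so that the diets overlapped. In set 67-92 the 8 muscle markers summed to 21.4 to 68.5 on high sugar and 11.2 to 18.04 on control, and the 7 cuticle markers to 128 to 248 on high sugar and 53.7 to 126 on control. Dcr-2 RNA, from the transgene and the native gene together, was found in all libraries, at 4.21 to 26.6 on high sugar and 14.9 to 81.04 on control. Of 4 oenocyte markers, CG18609 and desat2 were at 0 in every library. All 4 together summed to 0.0997 to 0.956, with 1 to 2 of them detected in each library. Libraries 67 and 83 (control) and 75 and 91 (high sugar) of set 67-92 were closer to each other than other replicates were, with a median absolute log2 difference of 0.0949 and 0.128, against 0.140 to 0.378 for the other 28 pairs within a group. Whether each pair came from 1 sample is not stated in the labels, and if so, p-values that rest on set 67-92 come out too small. They were counted as separate libraries, and named genes that lose their call when each pair is averaged are given with both values. In set 67-92 averaging left 486 of 2402 features called, against 769 of 2428.

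Across the 4 sets, Cat was lower on high sugar, Jafrac1 was higher, Sod was slightly higher, and the 2 glutathione transferases had no common direction. Cat changed by -0.63 ± 0.08 log2 units (SE; limma, adjusted p = 6.28e-06), Jafrac1 by 0.64 ± 0.11 (adjusted p = 1.48e-04) and Sod by 0.31 ± 0.12 (adjusted p = 0.0456, but 0.0758 with the close pairs averaged). GstD1 (0.08 ± 0.11, adjusted p = 0.605) and CG1702 (0.06 ± 0.12, adjusted p = 0.719) did not pass. Thus 3 of the 5 passed, 2 higher and 1 lower, in a comparison in which 36.6% of the tested features passed, 23.1% higher and 13.4% lower. The median change over all tested features was 0.06, and between -0.02 and 0.12 within the sets. Median-of-ratios scaling moved that median to 0.17 in set 67-92, where it was 0.03 on the deposited scale.

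**Figure D1:**
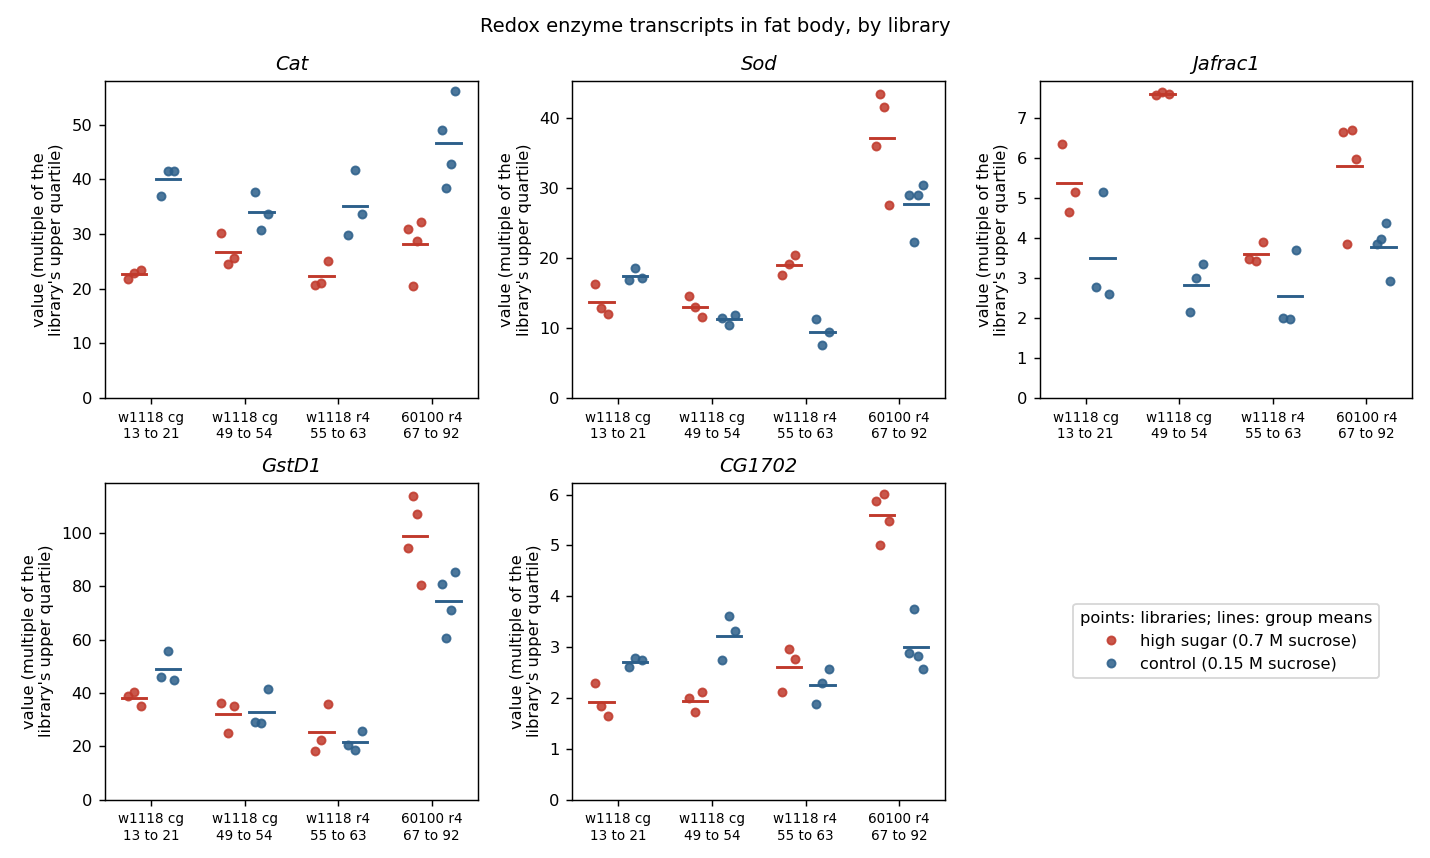
Values of the 5 genes in each library (points) with group means (lines), by set, high sugar (red, left) and control (blue, right); the y axis is in multiples of the library's upper quartile and starts at 0. Cat points on high sugar lie below those on control in every set, while CG1702 points lie below in sets 13-21 and 49-54 and above in set 67-92.

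The sets did not give the same picture for every gene. Within set 13-21 only Cat passed of the 5 (7.99% of all tested features passed), within set 49-54 Jafrac1 and CG1702 (34.4%), within set 55-63 Cat and Sod (22.9%), and within set 67-92 the 4 genes other than GstD1 (31.7%). A joint test of whether the diet effect differed between the sets passed for Sod (limma, adjusted p = 0.00203) and CG1702 (adjusted p = 4.41e-05), 2 of the 5, where 37% of all tested features passed. It did not pass for Cat (adjusted p = 0.328), Jafrac1 (adjusted p = 0.111) or GstD1 (adjusted p = 0.151).

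**Figure D2:**
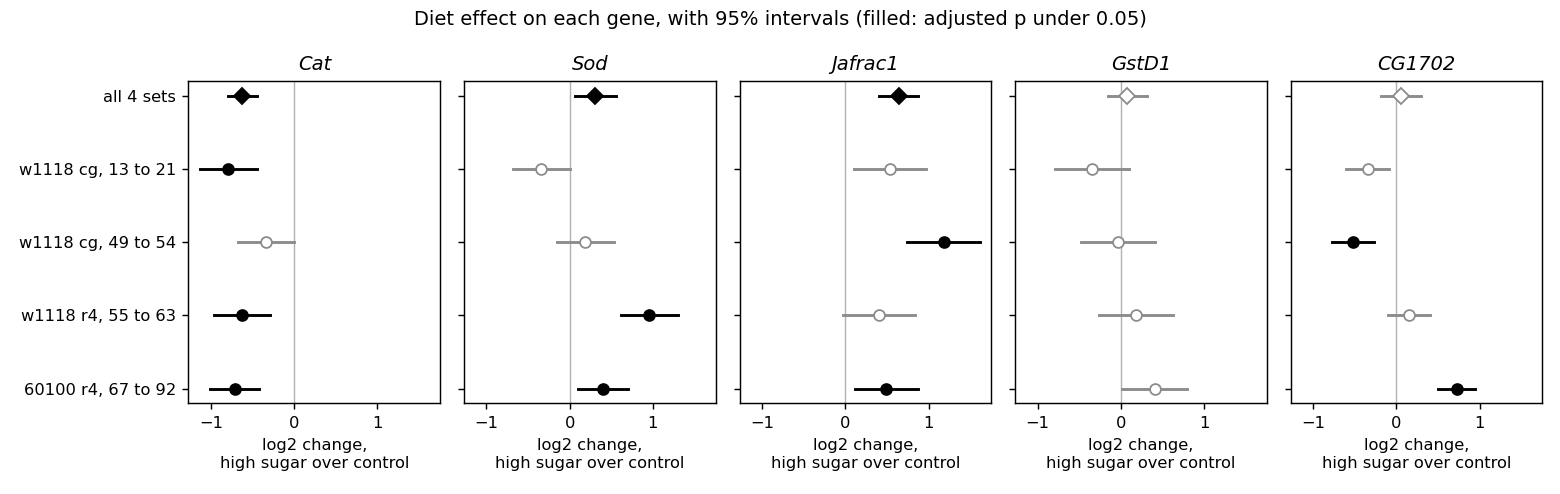
Log2 change on high sugar over control for each gene, across all 4 sets (diamonds) and within each set (circles), with 95% confidence intervals; filled symbols passed at an adjusted p of 0.05. Cat estimates lie left of 0 in all 4 sets and Jafrac1 estimates right of 0, while those of Sod, GstD1 and CG1702 lie on both sides.

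Catalase was lower on high sugar in each set, and on the deposited scale the diets overlapped in none of them. In set 13-21 the 3 high-sugar libraries stood at 21.7, 22.9 and 23.3, against 36.9, 41.5 and 41.6 in the control libraries. In set 49-54 they stood at 30.2, 24.4 and 25.6 on high sugar and 37.6, 30.7 and 33.7 on control. That set had the narrowest gap, 30.2 in the highest high-sugar library against 30.7 in the lowest control library. With a common upper quartile the diets overlapped there, with 41.8 in the highest high-sugar library and 40.1 in the lowest control library. In set 55-63 Cat stood at 20.6, 21.01 and 25.05 on high sugar and 29.9, 41.8 and 33.6 on control. In set 67-92 it stood at 30.8, 20.5, 28.7 and 32.3 on high sugar and 48.97, 38.5, 42.7 and 56.2 on control. The ratio of the high-sugar mean to the control mean was 0.567, 0.787, 0.634 and 0.603 in the 4 sets in that order. Groups that did not overlap were seen, in either direction, for 26.4% of the tested features in set 13-21, 51% in set 49-54, 38.2% in set 55-63 and 25.5% in set 67-92. A fall without overlap in each of the 4 sets was seen for 15 of the 2428 tested features, 0.618%, on the deposited scale, and with the common upper quartile Cat was not such a feature. In set 13-21, where the ratio of the Cat means was lowest, the muscle markers summed to 4.61 to 6.9995 on high sugar and 10.4 to 15.8 on control, and the cuticle markers to 20.6 to 61.6 on high sugar and 75.2 to 90.2 on control. The midgut markers in that set summed to 18.5 to 131 on high sugar and 12.1 to 101 on control. The part of other tissues in the fall of Cat was not tested.

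The within-set change of Cat was -0.79 ± 0.16 log2 units in set 13-21 (limma, adjusted p = 0.00394), -0.63 ± 0.16 in set 55-63 (adjusted p = 0.00813) and -0.72 ± 0.14 in set 67-92 (adjusted p = 0.00109). In set 49-54 it was -0.34 ± 0.16 and did not pass (adjusted p = 0.118). The call in set 55-63 was lost without control library 56 (-0.50, adjusted p = 0.0520) and when that set was fitted alone (adjusted p = 0.0501). By rank of the p-value for the diet effect across sets, Cat stood 49th of the 2428 features. Its diet effect did not pass a test of difference between drivers (0.06, interval -0.35 to 0.48) or between stocks (-0.09, interval -0.54 to 0.36).

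Jafrac1, the peroxiredoxin that reduces hydrogen peroxide in the cytosol, stood on average above control in all 4 sets. In set 49-54 the high-sugar libraries lay at 7.58, 7.64 and 7.60, against 2.15, 2.99 and 3.35 in the control libraries, and the diets did not overlap. In set 13-21 they lay at 6.35, 4.66 and 5.15 on high sugar and 2.78, 5.15 and 2.60 on control, so that 1 control library reached into the high-sugar range. In set 55-63 they lay at 3.48, 3.42 and 3.901 on high sugar and 2.002, 1.98 and 3.70 on control, again with 1 control library inside the high-sugar range. In set 67-92 they lay at 6.65, 3.85, 6.72 and 5.97 on high sugar and 3.84, 3.98, 4.38 and 2.94 on control. There it was 1 high-sugar library, number 76, that fell within the control range.

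Jafrac1 changed by 1.18 ± 0.21 log2 units in set 49-54 (limma, adjusted p = 1.59e-04) and by 0.49 ± 0.18 in set 67-92 (adjusted p = 0.0434). It had 0.54 ± 0.21 in set 13-21 (adjusted p = 0.137) and 0.40 ± 0.21 in set 55-63 (adjusted p = 0.167). Both of these results turned on a single control library: without number 14 the change in set 13-21 was 0.78 (adjusted p = 0.0291), and without number 57 that in set 55-63 was 0.62 (adjusted p = 0.0449). The call in set 67-92 was lost when the close pairs of libraries were averaged (0.46, adjusted p = 0.133). It was also lost without any 1 of the libraries 50, 62, 67, 68, 75, 84, 91 and 92, with adjusted p between 0.0501 and 0.133. The largest change was in set 49-54, the set in which the haemocyte markers PPO2 (CG8193), PPO1 (proPO-A1) and nimC1 were at 0 in every high-sugar library, and the part of other cell types in that change was not tested.

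The opposite directions of Cat and Jafrac1 can be read within a library, where the ratio of one to the other is free of the scaling. This ratio was chosen after the values had been seen, from a gene that fell and a gene that rose, and carries no test. Separation of the diets is favoured by that choice, and how many other such pairs of features separate them was not counted. Cat over Jafrac1 was 3.20 to 6.42 over the 13 high-sugar libraries and 8.05 to 21.1 over the 13 control libraries, with no overlap. By set the medians were 4.53 on high sugar and 13.3 on control in set 13-21, and 3.37 on high sugar and 10.3 on control in set 49-54. They were 6.14 on high sugar and 14.9 on control in set 55-63, and 4.98 on high sugar and 11.2 on control in set 67-92. With the means of set and diet removed, the 2 genes varied almost independently over the 26 libraries (Pearson r 0.10), against -0.57 with only the set means removed.

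**Figure D3:**
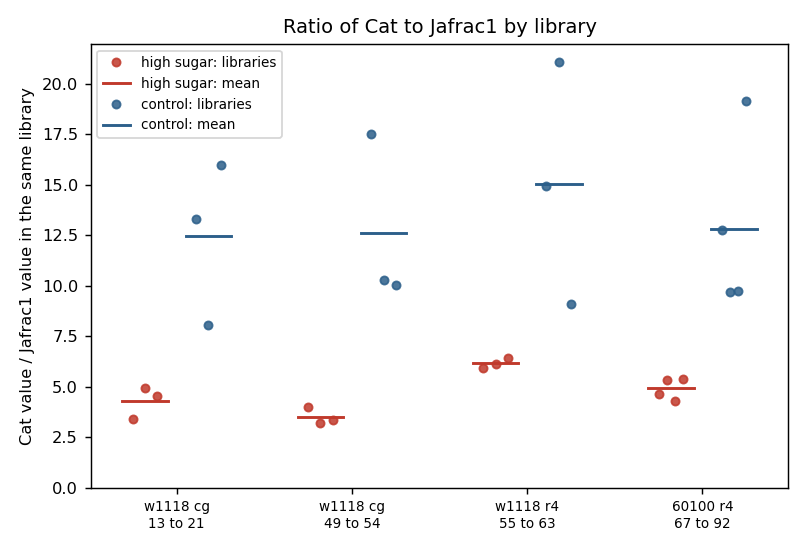
Ratio of the Cat value to the Jafrac1 value in each library (points) with group means (lines), by set, high sugar (red, left) and control (blue, right); the y axis has no unit and starts at 0. All high-sugar points lie at or below 6.42 and all control points at or above 8.05.

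Sod, the enzyme that makes hydrogen peroxide from superoxide in the cytosol, responded differently from set to set. In set 55-63 it stood at 17.6, 19.1 and 20.4 on high sugar, against 11.3, 7.52 and 9.41 on control, with no overlap. In set 67-92 it stood at 36.1, 43.5, 41.6 and 27.7 on high sugar and 29.1, 22.4, 29.1 and 30.5 on control. Here 3 of the 4 high-sugar libraries lay above every control library, and number 92 lay among them. In set 13-21 Sod stood at 16.3, 12.8 and 12.0 on high sugar and 16.9, 18.6 and 17.1 on control, so that the high-sugar libraries were the lower ones, without overlap. In set 49-54 it stood at 14.6, 13.002 and 11.6 on high sugar and 11.5, 10.5 and 11.9 on control, and the diets overlapped.

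The change of Sod passed in set 55-63 (0.96 ± 0.16 log2 units; limma, adjusted p = 2.49e-04) and in set 67-92 (0.40 ± 0.14, adjusted p = 0.0367), the 2 sets with the r4 driver. It was -0.34 ± 0.16 in set 13-21 (adjusted p = 0.257) and 0.19 ± 0.16 in set 49-54 (adjusted p = 0.402), the 2 sets with cg. The mean effect of the cg sets minus that of the w1118 r4 set was -1.03 ± 0.20 (limma, adjusted p = 0.00254), while 60100 minus w1118 with the same driver was -0.56 ± 0.22 (adjusted p = 0.133). Of the 5 genes, Sod and CG1702 passed the driver comparison, in which 8.03% of the tested features passed. With 2 cg sets and 1 w1118 r4 set, the driver and the set cannot be told apart. In set 55-63, where Sod changed most, midgut marker RNA also differed between the diets as given above, and its part in the change of Sod was not tested.

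The mean change of Sod across sets was close to the threshold. Without set 55-63 it was 0.11 (adjusted p = 0.481), without set 13-21 it was 0.50 (adjusted p = 0.00201), and under quantile normalization it was 0.20 (adjusted p = 0.122). The call was kept without any 1 library of set 13-21 and without library 51, 54 or 92, and was lost without any 1 of the other 17 libraries, with adjusted p between 0.0521 and 0.0849. In set 67-92 the call was lost when the close pairs were averaged (0.40, adjusted p = 0.101), under quantile normalization (0.22, adjusted p = 0.195) and without library 67, 68, 75, 76 or 91 (0.30 to 0.43, adjusted p between 0.0518 and 0.128), while median-of-ratios scaling gave 0.60 (adjusted p = 0.00828).

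CG1702, the theta-class glutathione transferase, changed in opposite directions between sets. In set 67-92 it stood at 5.88, 5.01, 6.02 and 5.49 on high sugar, against 2.89, 3.76, 2.83 and 2.57 on control, and every high-sugar library lay above every control library. In set 49-54 it stood at 1.998, 1.73 and 2.11 on high sugar and 2.75, 3.61 and 3.32 on control, with every high-sugar library below every control library. In set 13-21 it stood at 2.31, 1.84 and 1.65 on high sugar and 2.61, 2.78 and 2.74 on control, likewise lower without overlap. In set 55-63 it stood at 2.11, 2.97 and 2.76 on high sugar and 1.88, 2.31 and 2.57 on control, and the diets overlapped.

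CG1702 rose by 0.72 ± 0.11 log2 units in set 67-92 (limma, adjusted p = 5.70e-05) and fell by 0.52 ± 0.12 in set 49-54 (adjusted p = 0.00218). It had -0.35 ± 0.12 in set 13-21 (adjusted p = 0.0898) and 0.15 ± 0.12 in set 55-63 (adjusted p = 0.388). In the joint test of the sets it ranked 25th of the 2428 features. The diet effect was lower with cg than with r4 in w1118 (-0.58 ± 0.15; limma, adjusted p = 0.0196), a call that was lost without library 55 (adjusted p = 0.0686) or 62 (adjusted p = 0.0768). It was higher in 60100 than in w1118, both with r4, by 0.57 ± 0.16 (adjusted p = 0.0326), the only 1 of the 5 genes to pass the stock comparison, in which 7.41% of the tested features passed. That call was lost with the close pairs averaged (0.53, adjusted p = 0.107), with a common upper quartile (0.51, adjusted p = 0.0538), and without library 56, 57, 61, 67, 75, 83, 84 or 91 (adjusted p between 0.0555 and 0.108). The set in which CG1702 rose is also the set with more muscle and cuticle marker RNA on high sugar, and the part of those tissues was not tested.

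GstD1, the delta-class enzyme, gave no call in any set. In set 67-92 it stood at 94.4, 114, 107 and 80.5 on high sugar and 81.0, 60.6, 71.2 and 85.2 on control, with 3 of the 4 high-sugar libraries above all control libraries. In set 13-21 it stood at 39.0, 40.2 and 35.1 on high sugar and 46.0, 55.8 and 44.9 on control, lower without overlap. In set 49-54 it stood at 36.3, 25.1 and 35.2 on high sugar and 29.1, 28.6 and 41.4 on control. In set 55-63 it stood at 18.1, 22.5 and 36.0 on high sugar and 20.6, 18.6 and 25.8 on control, and in both of these sets the diets overlapped. The changes were -0.35 ± 0.21, -0.03 ± 0.21, 0.18 ± 0.21 and 0.40 ± 0.19 log2 units in sets 13-21, 49-54, 55-63 and 67-92 (limma, adjusted p = 0.409, 0.945, 0.576 and 0.0996). The value in set 67-92 passed without high-sugar library 92 (0.50, adjusted p = 0.0484) and with median-of-ratios scaling (0.61, adjusted p = 0.0272). The 95% interval of its mean change across sets ran from -0.16 to 0.32.

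The 2 w1118 cg sets carry the same labels. The diet effect in set 49-54 minus that in set 13-21 was 0.46 ± 0.23 log2 units for Cat, 0.53 ± 0.23 for Sod, 0.64 ± 0.30 for Jafrac1, 0.31 ± 0.30 for GstD1 and -0.17 ± 0.17 for CG1702. By limma 0 of the 5 passed (adjusted p between 0.109 and 0.507), where 21.7% of the tested features passed. Before adjustment limma's p was under 0.05 for 2 of them, Sod and Jafrac1, and limma with array weights and robust fitting called Cat and Sod. The salivary gland markers differed widely between these sets, as given above, and their part in these differences was not tested.

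Levels were set side by side after every library had been divided by its upper quartile over one common set of 10094 features. GstD1 was highest in 60100 r4, with 103 ± 16.001 on high sugar and 77.5 ± 11.4 on control (SD, n = 4 each). In w1118 r4 it had 34.6 ± 12.5 on high sugar and 27.9 ± 4.57 on control (SD, n = 3 each). The stock difference was 1.59 ± 0.20 log2 units on high sugar (limma, adjusted p = 2.53e-06) and 1.44 ± 0.20 on control (adjusted p = 2.87e-05). The w1118 cg sets lay between them, with 40.9 ± 3.12 and 44.6 ± 8.10 on high sugar and 52.7 ± 6.26 and 43.9 ± 10.5 on control in sets 13-21 and 49-54. GstD1 also differed by driver, cg over r4 in w1118, by 0.76 ± 0.19 log2 units on control (limma, adjusted p = 0.00177). On high sugar that difference was 0.34 ± 0.19 and did not pass (adjusted p = 0.123). In the order of the 8 group means, only the step from control 60100 r4 to control set 13-21 separated neighbours without overlap.

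Sod was likewise highest in 60100 r4, with 38.8 ± 7.64 on high sugar and 28.9 ± 3.84 on control (SD, n = 4 each). Next came w1118 r4 on high sugar with 25.8 ± 1.88, while the same cross on control had the lowest mean of all, 12.1 ± 2.52 (SD, n = 3 each). The 4 groups of w1118 cg lay from 14.7 ± 2.45 to 18.9 ± 0.932 (n = 3 each). The only neighbours in the order of means whose ranges did not overlap were high-sugar w1118 r4 and control set 13-21. The stock difference was 0.55 ± 0.16 log2 units on high sugar (limma, adjusted p = 0.00704) and 1.19 ± 0.16 on control (adjusted p = 1.81e-05). The driver difference, cg over r4 in w1118, was -0.64 ± 0.15 on high sugar (adjusted p = 9.78e-04) and 0.46 ± 0.15 on control (adjusted p = 0.0119). It thus pointed in opposite directions on the 2 diets. The control value was lost without library 56 (0.32, adjusted p = 0.107) and under quantile normalization (0.28, adjusted p = 0.0552), and the stock difference on high sugar was lost under quantile normalization (0.29, adjusted p = 0.0714) and was 0.91 on the deposited scale.

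CG1702 stood at 5.83 ± 0.443 in high-sugar 60100 r4 and at 3.13 ± 0.529 in control 60100 r4 (SD, n = 4 each). In w1118 r4 it had 3.54 ± 0.619 on high sugar and 2.90 ± 0.418 on control (SD, n = 3 each). Set 49-54 had 2.70 ± 0.232 on high sugar and 4.27 ± 0.576 on control, and set 13-21 had 2.07 ± 0.365 on high sugar and 2.92 ± 0.103 on control. High-sugar 60100 r4 was separated from control set 49-54, the next in order, and all other neighbours overlapped. The stock difference was 0.60 ± 0.12 log2 units on high sugar (limma, adjusted p = 3.14e-04) and 0.08 ± 0.12 on control (adjusted p = 0.620). The driver difference was -0.43 ± 0.11 on high sugar (adjusted p = 0.00214) and 0.23 ± 0.11 on control (adjusted p = 0.0843).

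**Figure D4:**
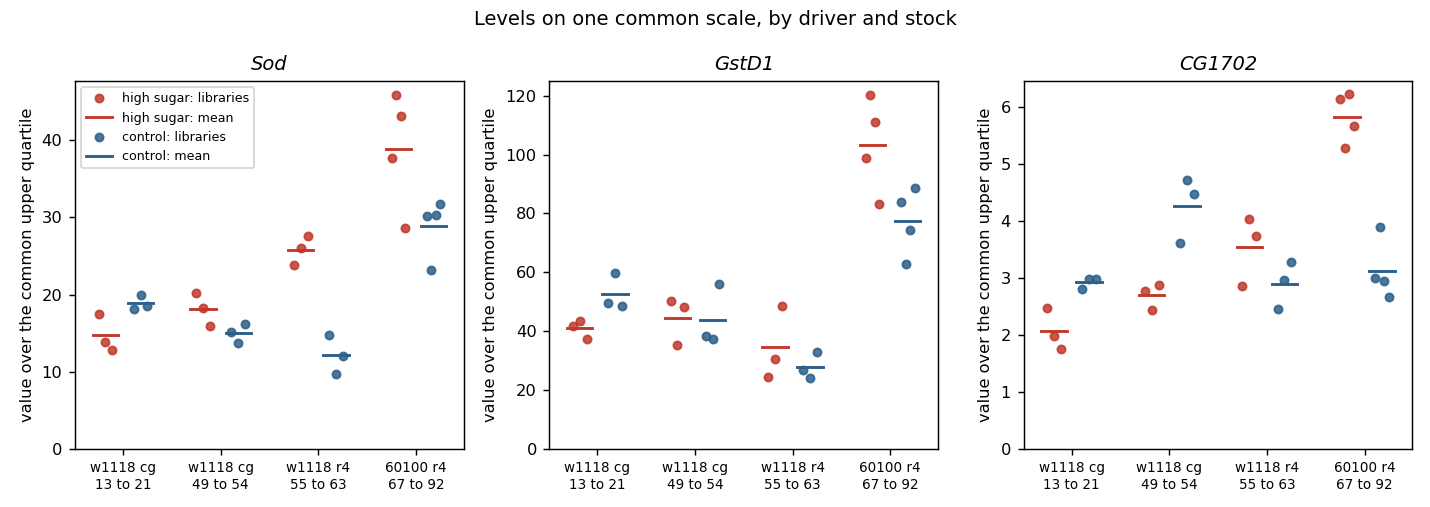
Values of Sod, GstD1 and CG1702 in each library (points) with group means (lines) after division by one common upper quartile, by set, high sugar (red, left) and control (blue, right); y axes start at 0. GstD1 on either diet is highest in 60100 r4, with means of 103 and 77.5, and CG1702 stands apart there on high sugar, with a mean of 5.83.

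Group means of Cat were ordered by diet. Control means lay between 43.1 ± 2.96 and 48.4 ± 8.04 in the 4 sets, all with overlapping ranges, and high-sugar means between 24.3 ± 0.898 and 37.0 ± 4.17. The highest high-sugar group, set 49-54, reached 41.8 and overlapped with the control groups of all 4 sets. Their lowest libraries stood at 39.7, 40.1, 38.8 and 39.9 in sets 13-21, 49-54, 55-63 and 67-92. That high-sugar group was separated from the next high-sugar group. Between drivers Cat differed by -0.0022 ± 0.14 log2 units on high sugar and -0.02 ± 0.14 on control, and between stocks by -0.05 ± 0.15 and 0.10 ± 0.15, and limma called none of these (adjusted p between 0.643 and 0.990, and on the deposited scale 0.40 for the stock difference on control, adjusted p = 0.0378). Jafrac1 was highest in high-sugar set 49-54 at 10.5 ± 0.183, with no overlap with the next group, and its control means lay between 3.29 ± 1.24 and 3.94 ± 0.637. Its driver difference on high sugar was 0.59 ± 0.19 (limma, adjusted p = 0.0100), and its other level differences did not pass. In these comparisons of level, 3 of the 5 genes passed between drivers on high sugar (58.8% of 2656 features) and 2 on control (54.9%), and 3 passed between stocks on high sugar (50.6%) and 2 on control (33.7%).

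Around these enzymes, a list of 77 genes of redox defence was counted, of which 76 were in the table and 42 passed the filter. The list, like the 5 enzymes, was chosen with earlier results of these data known. Of the 42, 13 were higher on high sugar, 7 were lower and 22 did not pass (limma, 47.6% called against 36.6% of all tested features), with a median change of 0.14 against 0.06. Under quantile normalization the split was 8 higher and 8 lower, under the other scalings it stayed at 14 to 16 higher and 5 lower, and with the close pairs averaged it was 12 higher and 5 lower. Without the 5 enzymes it was 11 higher and 6 lower of 37, with a median of 0.15. Where a class is described, genes beyond the 12 of the list with the smallest adjusted p were named after their values had been seen.

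Of 6 tested peroxiredoxins, 3 were higher and 0 lower by limma, with 0 lower also at an unadjusted p under 0.05. Of all tested features 23.1% were higher and 13.4% lower. Besides Jafrac1 the 3 peroxiredoxins were Prx5037 (the mitochondrial Prx3; 0.30 ± 0.07, adjusted p = 0.00118) and CG12896 (0.26 ± 0.10, adjusted p = 0.0367). The rise of CG12896 was not common to the sets. It averaged 2.36 on high sugar and 0.694 on control in set 49-54, and 2.32 and 1.92 in set 13-21. In set 55-63 it averaged 0.412 on high sugar and 0.354 on control. In set 67-92 it was lower on high sugar, with 0.524 against 0.596 on control. Its means in the r4 sets were thus below 1, and it passed the filter on low values through the cg sets. CG12896 and Prx2540-1 (0.30 ± 0.14, adjusted p = 0.0843) are close copies whose reads may have been divided between them. Of 5 thioredoxin and glutaredoxin genes, 2 were higher, Txl, a thioredoxin-like protein (0.33 ± 0.07, adjusted p = 0.00122), and Trxr-1, the thioredoxin reductase that recharges thioredoxin from NADPH (0.24 ± 0.07, adjusted p = 0.00698, but 0.0604 under quantile normalization). Trx-2, the main cytosolic thioredoxin, had 0.13 ± 0.11 (adjusted p = 0.383). Trxr-1 averaged 6.88 ± 1.21 on high sugar and 4.97 ± 0.378 on control in set 67-92 (SD, n = 4 each), and 2.60 ± 0.448 on high sugar and 2.53 ± 0.431 on control in set 55-63 (n = 3 each).

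Both glutathione synthetase genes were higher, GS (Gss1) by 0.33 ± 0.06 (limma, adjusted p = 1.37e-04) and CG32495 (Gss2) by 0.30 ± 0.06 (adjusted p = 4.50e-04). They are similar genes that lie close together, so reads may have been shared between them. GS averaged 4.67 ± 0.663 on high sugar and 2.95 ± 0.322 on control in set 67-92 (SD, n = 4 each), and 0.911 ± 0.0400 on high sugar and 0.784 ± 0.115 on control in set 13-21 (n = 3 each). Gclm, the modifier subunit of the enzyme for the first step of glutathione synthesis, had 0.03 ± 0.09 (adjusted p = 0.817), and Gclc, its catalytic subunit, was below the filter with a mean of 0.192.

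Among 18 tested glutathione transferases of all classes, 4 were higher and 6 lower, with a median of 0.04. Over all tested features 23.1% were higher and 13.4% lower, with a median of 0.06. The 4 transferases that rose were all of the epsilon class, out of 7 tested: GstE3 (0.35 ± 0.11), GstE8 (0.29 ± 0.09), GstE7 (0.36 ± 0.14) and CG16936 (GstE12; 0.27 ± 0.10), with adjusted p between 0.0103 and 0.0471, of which only GstE8 passed under quantile normalization. In the delta class, GstD3 fell by 1.003 ± 0.14 (limma, adjusted p = 1.25e-05) and GstD10 fell by 0.52 ± 0.13 (adjusted p = 0.00421), while GstD1 did not pass. GstD3 averaged 1.56 ± 0.515 on high sugar and 4.69 ± 2.25 on control in set 67-92 (SD, n = 4 each), and 1.31 ± 0.352 on high sugar and 3.71 ± 0.142 on control in set 13-21 (n = 3 each). GstD9, the neighbour of GstD1, had 0.91 ± 0.40 (adjusted p = 0.0768), with a wide spread between control libraries. In set 49-54 it averaged 7.01 ± 1.21 on high sugar and 1.82 ± 3.14 on control (SD, n = 3 each). In set 13-21 it went the other way, with 1.37 ± 0.495 on high sugar and 5.03 ± 4.04 on control. The theta class gave 2 lower of 3 tested, CG1681 (GstT4; -0.60 ± 0.20, adjusted p = 0.0223) and CG30000 (GstT1; -0.25 ± 0.09, adjusted p = 0.0313), and CG1702 as the third, and CG30000 did not pass with a common upper quartile (adjusted p = 0.0591), with median-of-ratios scaling (adjusted p = 0.105) or with the close pairs averaged (adjusted p = 0.0543). Of CG1681 the largest fall was in set 13-21, with 3.94 ± 1.48 on high sugar and 14.8 ± 2.94 on control (SD, n = 3 each). In the remaining classes GstS1 (-0.33 ± 0.11, adjusted p = 0.0225) and CG6673 (GstO2; -0.14 ± 0.05, adjusted p = 0.0373) fell across sets. The mean of GstS1 was lower on high sugar in every set but 49-54. There it averaged 9.65 ± 0.498 on high sugar and 7.92 ± 1.75 on control (SD, n = 3 each). CG6673 passed on the deposited scale and under quantile normalization, but not with the other scalings or with the close pairs averaged (-0.13, adjusted p = 0.0717). Genes of the delta and epsilon classes are similar in sequence, and how reads were assigned among them is not given in the sources used here.

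**Figure D5:**
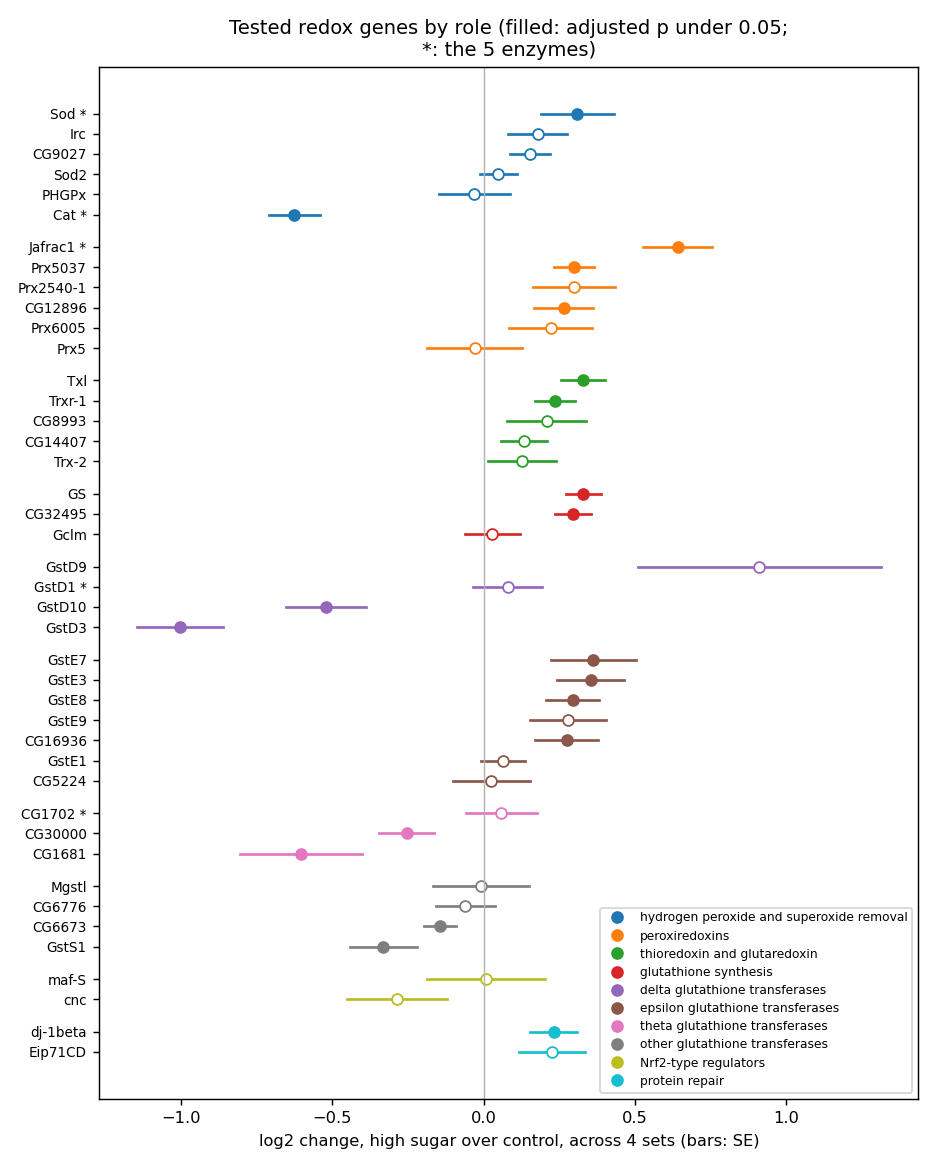
Log2 change on high sugar over control across the 4 sets (points, with bars of 1 SE) for the 42 tested redox genes, grouped by role from top to bottom; filled points passed at an adjusted p of 0.05 and asterisks mark the 5 enzymes. Cat (-0.63) and GstD3 (-1.003) lie far left in their classes, while all 6 peroxiredoxins but Prx5 (-0.03) lie right of 0.

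The mitochondrial superoxide dismutase Sod2 (0.05 ± 0.06, adjusted p = 0.553) did not pass by limma, nor did the peroxidase genes Irc (0.18 ± 0.10, adjusted p = 0.149) and PHGPx (-0.03 ± 0.12, adjusted p = 0.849). By limma Irc passed with median-of-ratios scaling (0.23, adjusted p = 0.0436) and PHGPx under quantile normalization (-0.25, adjusted p = 0.0185). PHGPx averaged 31.9 ± 1.41 on high sugar and 56.8 ± 5.86 on control in set 13-21 (SD, n = 3 each). In set 55-63 it averaged 55.4 ± 5.58 on high sugar and 42.8 ± 1.99 on control. The transcript of cnc, the fly Nrf2-type factor, had -0.29 ± 0.16 (adjusted p = 0.174), and that of Keap1, its inhibitor, was below the filter with a mean of 0.0980. Within sets the split of the 42 genes was 0 higher and 6 lower in set 13-21, 11 and 2 in set 49-54, 9 and 2 in set 55-63, and 12 and 4 in set 67-92. Over all tested features the shares were 2.14% higher and 5.85% lower in set 13-21, 24.2% and 10.2% in set 49-54, 17.8% and 5.19% in set 55-63, and 16.8% and 14.8% in set 67-92. The joint test between sets passed for 17 of the 42 (40.5%), close to the 37% of all features.

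Genes that supply NADPH, on which both peroxiredoxins and glutathione depend, were higher in 3 of 4 tested cases, beside 23.1% of all tested features. Men, the NADP-dependent malic enzyme, rose by 1.05 ± 0.15 log2 units (limma, adjusted p = 9.30e-06), Pgd, the second NADPH-forming enzyme of the pentose phosphate pathway, by 0.91 ± 0.12 (adjusted p = 4.80e-06) and Zw, the first, by 0.21 ± 0.08 (adjusted p = 0.0396, but 0.103 with the close pairs averaged). Zw averaged 2.89 ± 0.362 on high sugar and 1.61 ± 0.363 on control in set 67-92 (SD, n = 4 each). In the groups of the other sets it averaged 0.369 to 0.667, so it passed the filter on low values only through set 67-92. In set 13-21 Zw averaged 0.369 on high sugar and 0.423 on control. Idh had 0.08 ± 0.11 (adjusted p = 0.581). Pgd averaged 20.5 ± 4.42 on high sugar and 7.71 ± 2.05 on control in set 67-92 (SD, n = 4 each), but 1.26 ± 0.307 on high sugar and 0.952 ± 0.364 on control in set 13-21 (n = 3 each).

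Oxidases that release hydrogen peroxide in peroxisomes, where catalase acts, moved both ways. Of 7 tested, 3 were higher and 1 lower, beside 23.1% higher and 13.4% lower of all tested features. Among the 3 by limma were CG11236 (Daao2, a D-amino acid oxidase; 0.55 ± 0.07, adjusted p = 2.19e-06) and CG9527 (Acox3, an acyl-CoA oxidase; 0.58 ± 0.08, adjusted p = 3.93e-06). CG11236 averaged 3.13 ± 0.548 on high sugar and 2.06 ± 0.477 on control in set 67-92 (SD, n = 4 each). In the groups of the other sets it averaged 0 to 1.41, so it passed the filter on low values mainly through set 67-92. In set 49-54 it averaged 0.871 ± 0.105 on high sugar and 0 on control (n = 3 each). CG9527 averaged 7.19 ± 0.513 on high sugar and 4.85 ± 0.392 on control in set 67-92 (SD, n = 4 each), and 4.93 ± 0.366 on high sugar and 2.02 ± 0.403 on control in set 49-54 (n = 3 each). Uro, the urate oxidase, was the 1 that fell (-1.25 ± 0.24, adjusted p = 3.16e-04), with 2.31 ± 0.0864 on high sugar and 18.1 ± 4.07 on control in set 49-54. Uro is itself 1 of the 6 markers of Malpighian tubule. Of the others, CG15406 averaged 0.761 on high sugar and 6.56 on control in that set, and CG3690 averaged 0.508 on high sugar and 2.38 on control. In set 13-21 CG15406 averaged 2.54 on high sugar and 1.69 on control and CG3690 averaged 1.77 on high sugar and 1.15 on control, while Uro averaged 9.39 on high sugar and 12.5 on control. The part of that tissue in the fall of Uro was not tested.

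The features whose profile over the 26 libraries was most like that of each enzyme were found after subtraction of the set means, and are given as a description, with no test. The libraries share diet and set, so r is also given with the means of set and diet removed. Cat was most like Cyp6d5 (Pearson r 0.88, or 0.33 within set and diet), vsg (0.87 and 0.65) and Cyp28d1 (0.87 and 0.57), of which Cyp6d5 and Cyp28d1 encode cytochrome P450 enzymes. All 3 were, like Cat, lower on high sugar, a direction favoured by their choice, since diet was left in the profiles. Jafrac1 was most like CG8036 (0.89 and 0.70), the oxidase CG11236 named above (0.87 and 0.44) and blw, a subunit of mitochondrial ATP synthase (0.84 and 0.65). Sod was most like CG1458 (Cisd2, an iron-sulphur protein; 0.94 and 0.85), the proteasome subunit Prosalpha5 (0.92 and 0.75) and the ribosomal protein gene RpL9 (0.90 and 0.71). GstD1 was most like CG17333 (Pgls, which acts between Zw and Pgd; 0.84 and 0.88) and the ribosomal protein genes RpS16 (0.84 and 0.84) and RpS26 (0.82 and 0.79). CG1702 was most like CG10962 (0.81 and 0.47), Inos, which makes inositol phosphate (0.80 and 0.66), and white, the eye pigment transporter gene (0.77 and 0.57). Among the 5 enzymes themselves, Sod and GstD1 were the most alike (0.59, or 0.56 within set and diet).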

How the data were processed

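Fat body RNA of 26 samples was sequenced after removal of ribosomal RNA, per the labels' protocols. Tissue was isolated by hand or by shearing and centrifugation, and the labels do not say which for each sample. TopHat 1.3.2, Bowtie 0.12.7, Cufflinks 1.1.0 and dm3 are named in the submitters' processing notes. Each deposited value is a ratio to the upper quartile of its library: the 75th percentile was 1 over 9608, 8320, 8467 and 9853 features in sets 13-21, 49-54, 55-63 and 67-92. Whether values were scaled by transcript length is not given in the sources used here, so levels were not compared between genes. Sets were scaled over different features, so levels were compared between sets only after division by a common upper quartile (10094 features, 2656 tested).

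Values were tested two-sided as log2(value + 1) with limma 3.58.1 in R 4.3.3 (empirical Bayes with a trend), on 2428 features, 16.6% of the table, that reached a mean of 1 or more, with Benjamini-Hochberg adjustment over all of them at 0.05. For the diet effect across sets the fit was a model with set and diet; all other contrasts came from 8 group means with a spread shared by all 26 libraries. Scripts were tested on simulated data. The members and gene lists were chosen with earlier results of these data known. Named were the 5 members, the called genes of the lists (at most 12 of the redox list, by adjusted p), 7 fixed redox genes and the 3 features most like each member; other genes of the redox list were named after their values had been seen. Current symbols came from RefSeq by locus tag (13055 features matched). Alternatives changed the pseudocount (0.1), filter, trend, weights, scaling, set terms, close library pairs, sets and single libraries. The values of 1 gene of the peroxisomal oxidase list, which is in that list's counts, are not reported here.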

Additional observations from a re-analysis of the deposited data

Results flagged for a closer look

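The diet effect on Sod differed between the 4 sets (limma joint test, adjusted p = 0.00203) and between drivers within the w1118 stock (adjusted p = 0.00254). The high-sugar mean of Sod was above the control mean in 3 sets and below it in set 13-21. The diet effect on CG1702 differed between the sets (limma, adjusted p = 4.41e-05), between the drivers (adjusted p = 0.0196) and between the stocks (adjusted p = 0.0326), with high-sugar libraries below all control libraries in both w1118 cg sets and above all of them in 60100 r4. A contrast of the diet effect between the 2 w1118 cg sets, which share their labels, did not pass for either gene by limma. It was 0.53 for Sod (interval 0.05 to 1.01, adjusted p = 0.109, and called with array weights and robust fitting) and -0.17 for CG1702 (interval -0.53 to 0.19, adjusted p = 0.507). Driver, stock and set cannot be told apart.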

How the results depend on the processing

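Of 2265 values of the 5 enzymes under alternatives, single libraries left out included, 2123 kept their direction and their side of the threshold, 68 lost a call, 30 gained one and 44 changed sign, and the cause was not tested. Calls of Cat and Jafrac1 across sets, of Sod in set 55-63, of CG1702 in sets 49-54 and 67-92 and in the joint test, and of the level of GstD1 between stocks held under each alternative run. Values in parentheses are log2 changes unless named as p. With array weights and robust fitting, calls were lost for Sod across sets (0.26) and in level by driver on control (0.29). Calls were gained for Cat between the cg sets (0.49), in set 49-54 (-0.28), jointly (adjusted p = 0.0485) and in level by stock on control (0.27), Sod between the cg sets (0.54) and by stock (-0.52), Jafrac1 in set 13-21 (0.59), in set 55-63 (0.41), jointly (adjusted p = 0.0276) and in level by stock on high sugar (0.46), GstD1 in set 67-92 (0.25) and in level by driver on high sugar (0.45) and CG1702 in set 13-21 (-0.34), in set 55-63 (0.30) and in level by driver on control (0.31). The sign turned for Cat in level by driver on control (0.039), in level by driver on high sugar (0.040) and in level by stock on high sugar (0.13) and GstD1 in set 49-54 (0.084). With median-of-ratios scaling, calls were gained for Cat in set 49-54 (-0.42), GstD1 in set 67-92 (0.61) and CG1702 in level by driver on control (0.32). The sign was turned for Cat by driver (-0.016), by stock (0.078), in level by driver on control (0.12), in level by driver on high sugar (0.10) and in level by stock on high sugar (0.21). With quantile normalization, calls were lost for Sod across sets (0.20), in set 67-92 (0.22), in level by driver on control (0.28) and in level by stock on high sugar (0.29), Jafrac1 in set 67-92 (0.35) and CG1702 by stock (0.52). Calls were gained for Cat in set 49-54 (-0.69) and GstD1 in level by driver on high sugar (0.46). A sign change was seen for Cat in level by stock on control (-0.22), Sod in set 49-54 (-0.033), GstD1 across sets (-0.056), between the cg sets (-0.28) and in set 55-63 (-0.046) and CG1702 across sets (-0.040) and in level by stock on control (-0.024). With each set fitted alone, calls were lost for Cat in set 55-63 (-0.63), Sod in set 67-92 (0.40) and Jafrac1 in set 67-92 (0.49). With the deposited scaling for levels, calls were gained for Cat in level by stock on control (0.40), Jafrac1 in level by stock on high sugar (0.54), GstD1 in level by driver on high sugar (0.49) and CG1702 in level by driver on control (0.29) and in level by stock on control (0.30). The sign turned for Cat in level by driver on control (0.080), in level by driver on high sugar (0.14) and in level by stock on high sugar (0.31). With libraries 67 and 83, and 75 and 91, averaged, calls were lost for Sod across sets (0.30) and in set 67-92 (0.40), Jafrac1 in set 67-92 (0.46) and CG1702 by stock (0.53). The sign was turned for CG1702 across sets (-0.0077). Without set 67-92, the call was lost for Sod across sets (0.27). A sign change was seen for GstD1 across sets (-0.066) and CG1702 across sets (-0.24). With a common upper quartile, the call was lost for CG1702 by stock (0.51). The sign turned for GstD1 in set 49-54 (0.030). Without a filter, calls were lost for Sod across sets (0.31), Jafrac1 in set 67-92 (0.49) and CG1702 by stock (0.57). With a pseudocount of 0.1, calls were lost for Jafrac1 in set 67-92 (0.58) and CG1702 by stock (0.68). The call of Sod across sets was also lost with cross (w1118 cg, w1118 r4 or 60100 r4) as the term (0.31) in place of set, with libraries up to 76 and from 83 of set 67-92 taken as separate sets by their numbers alone (0.31), and without set 49-54 (0.35) or set 55-63 (0.11).

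Leaving out 1 library at a time, Cat ranged by driver from -0.067 to 0.17, by stock from -0.22 to 0.049, in set 55-63 from -0.73 to -0.50, in level by driver on control from -0.12 to 0.11, in level by driver on high sugar from -0.053 to 0.083, in level by stock on control from -0.00034 to 0.23 and in level by stock on high sugar from -0.12 to 0.079. Sod ranged across sets from 0.25 to 0.36, in set 67-92 from 0.30 to 0.53 and in level by driver on control from 0.32 to 0.60. Jafrac1 ranged by stock from -0.13 to 0.24, in set 13-21 from 0.40 to 0.78, in set 55-63 from 0.29 to 0.62 and in set 67-92 from 0.40 to 0.65. GstD1 ranged in set 49-54 from -0.13 to 0.14, in set 55-63 from -0.084 to 0.39, in set 67-92 from 0.31 to 0.50 and in level by driver on high sugar from 0.13 to 0.61. CG1702 ranged by driver from -0.69 to -0.50, by stock from 0.47 to 0.66, in level by driver on control from 0.14 to 0.30 and in level by stock on control from -0.0040 to 0.15. The number of features called ranged by driver from 100 to 280, by stock from 81 to 230, in set 13-21 from 112 to 221 and in set 67-92 from 488 to 997.

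Without a filter the number of features called was 2227 across sets, 1259 between the cg sets, 610 by driver, 550 in set 13-21, 1778 in set 49-54, 1567 in set 55-63, 2199 in set 67-92, 2149 jointly, 3768 in level by driver on control, 3449 in level by driver on high sugar, 1774 in level by stock on control and 2855 in level by stock on high sugar. With array weights and robust fitting the number of features called was 856 between the cg sets, 553 by driver, 827 by stock, 335 in set 13-21, 971 in set 55-63, 1611 in set 67-92, 1635 jointly and 1429 in level by stock on control. With libraries 67 and 83, and 75 and 91, averaged the number of features called was 99 by stock and 486 in set 67-92. With median-of-ratios scaling the number of features called was 115 by stock. With each set fitted alone the number of features called was 80 in set 13-21, 358 in set 55-63 and 432 in set 67-92.

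No paired analysis was possible because the diets share no replicate numbers. Unknown depth limits what can be said of low values. Across sets, 888 of 2428 features were called, 562 higher and 326 lower, and under quantile normalization 851 of 2433, 424 higher and 427 lower. Quantile normalization gave 69 higher and 114 lower in set 13-21, 520 and 369 in set 49-54, 339 and 223 in set 55-63, 242 and 379 in set 67-92, 92 and 158 by driver, 272 and 182 between the cg sets, and 421 and 412 in level by stock on control. After median-of-ratios scaling it was 667 and 198 in set 67-92, 56 and 59 by stock, and 800 and 450 in level by stock on high sugar, where the deposited scale gave 950 and 371, and 1020 and 112 on control. Chosen after seeing the data were the counts of the gene lists under other scalings and with the close pairs averaged, which left 1 of the 3 called peroxin genes when the pairs were averaged.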

Other observations

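Peroxisome assembly genes, which were not part of the redox list, were also counted, since catalase is a peroxisomal enzyme. Of 14 such genes 4 passed the filter on low values, and 3 of these 4 were higher on high sugar across sets by limma. CG5325 (Pex19, which helps to build the peroxisomal membrane) had 0.41 ± 0.08 log2 units (adjusted p = 2.07e-04), CG14815 (Pex5, the receptor for most matrix proteins) 0.55 ± 0.18 (adjusted p = 0.0237) and CG4663 (Pex13) 0.49 ± 0.17 (adjusted p = 0.0274). In set 67-92 CG14815 averaged 5.21 ± 1.13 on high sugar and 2.39 ± 0.262 on control (SD, n = 4 each). CG4663 averaged 5.92 ± 0.897 and 3.75 ± 0.429 there. Both were low and uneven elsewhere. In set 13-21 CG14815 averaged 0.428 ± 0.538 on high sugar and 0.455 ± 0.484 on control (n = 3 each). In set 49-54 CG4663 averaged 0.449 ± 0.761 on high sugar and 0.0197 ± 0.0205 on control (n = 3 each). CG4289 (Pex14) had 0.04 ± 0.06 (adjusted p = 0.656). The rise of 3 of 4 stands beside 23.1% of all tested features that were higher, and beside the fall of Cat. With the close library pairs averaged, CG5325 alone passed, with adjusted p of 0.0521 for CG14815 and 0.0515 for CG4663.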
